A study of Homo sapiens with 6 samples.

Results

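Chromatin accessibility was described at 10 genes of the receptor tyrosine kinase signalling system that drugs for liver cancer aim at: the ligand genes FGF19 and VEGFA, and the receptor genes EGFR, ERBB2, MET, FGFR4, KDR, PDGFRA, PDGFRB and KIT. The members were the accessible sites whose strongest summit lay within 1 kb of any annotated start of these genes, in the gene body or within 20 kb of it. By this rule 155 of the 166021 sites of the data set were members, and all 10 genes had some. The rule used gene names and positions and no measured difference.

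The data came from ATAC-seq, in which the Tn5 transposase cuts DNA that nucleosomes leave exposed, in HLF cells. HLF is an established human liver cancer line, so each library stands for the same line. The 3 libraries of the control group came from cells given DMSO, the vehicle, and the 3 of the treated group from cells given 5 μM SNDX-5613 (revumenib), which keeps menin from binding MLL1. The labels put all 6 libraries in batch 1 and give 24 h of exposure, whereas the study's methods describe a longer exposure for this assay, so the duration is uncertain. Per the study's methods, every replicate started from 1 dish whose cells were divided between the arms. Libraries with the same number were therefore taken as pairs from 1 dish. The standard errors and p-values given for single sites come from a fit that did not use these pairs. They start from the spread between libraries within the groups. The fit then moves each site's spread toward the trend over all sites of similar mean. A site's standard error can therefore differ from what its own libraries alone would give. A fit with the dish as a block was an alternative, and only its calls are given.

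Receptor tyrosine kinases sit in the cell membrane. A bound growth factor brings receptor molecules together, they phosphorylate each other, and adaptor proteins pass the signal to the RAS-MAP kinase and PI3 kinase pathways. In liver tumours FGF19 acts through FGFR4, the hepatocyte receptor that restrains bile acid synthesis. VEGFA acts on KDR, the main receptor of blood vessel growth. PDGF receptors are best known in stromal cells and KIT in mast cells. Multikinase inhibitors used in liver cancer block several of these receptors together.

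Depth differed strongly and bears on each count below. The background pileup of reads, read from the peak lists, was 0.997 to 1.51 in 5 libraries and 0.211 in SNDX-5613 replicate 3, which is 16.2% of the median of the other 5. Called regions numbered 88026 to 113675 in those 5 libraries and 40568 in SNDX-5613 replicate 3. The EGFR promoter shows what this means for 1 strong site: its summit had pileups of 142, 157 and 160 reads in the DMSO libraries, 130 and 141 in SNDX-5613 replicates 1 and 2, and 21 in SNDX-5613 replicate 3. Values were therefore compared as percentiles. Each site with a peak in all 6 libraries was ranked within its library by the caller's -log10 p, so that 100 marks the strongest of 33405 such sites.

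The DMSO libraries had a peak at 93, 110 and 104 member sites, and the SNDX-5613 libraries at 106, 96 and 40. With each list reduced to its 40568 strongest regions, the same counts were 48, 46 and 43 in DMSO and 45, 41 and 40 in SNDX-5613 libraries. At this equal number DMSO replicate 3 had fewer member sites than SNDX-5613 replicate 1, so the groups overlapped. A peak was present in all 6 libraries at 37 member sites, 23.9% against 20.1% of all sites. Another 33 had a peak in the 5 deeper libraries and none in SNDX-5613 replicate 3, where a closed site and a site with too few reads cannot be told apart. At the other end, 47 member sites had a peak in 1 library, of which 17 were in SNDX-5613 replicate 1, and such sites made up 30.3% of member sites and 36.2% of all sites.

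**Figure D1:**
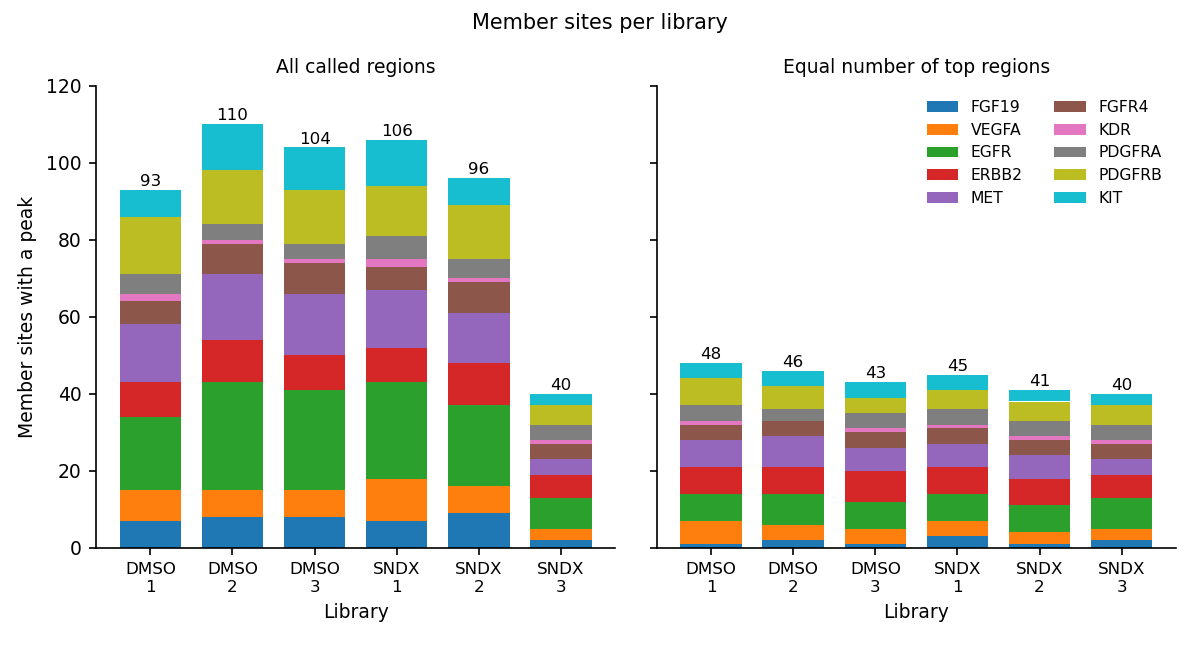
Number of member sites with a peak (vertical axis) in each of the 6 libraries (horizontal axis; SNDX stands for SNDX-5613), stacked by gene, with all called regions on the left and the 40568 strongest regions of each library on the right. SNDX-5613 replicate 3 had 40 member sites against 93 to 110 in the other libraries, and at the equal number all 6 libraries had 40 to 48.

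The loci differed in how many sites they held. EGFR, the EGF receptor and a gene of 193 kb, had 43 sites, of which 8 were in all 6 libraries. MET, the receptor of hepatocyte growth factor, had 25 with 3 in all 6, and PDGFRB, a receptor of mesenchymal cells and pericytes, had 16 with 5 in all 6. ERBB2, the EGF receptor relative that pairs with the other family members, had only 12 sites, but 6 of them were in all 6 libraries. KDR stood at the other end, with 3 sites over a gene of 47.1 kb and its flanks and 1 in all 6. Scaled to the length of gene and flanks, the number of sites ran from 3.44 per 100 kb at KDR and 8.26 at PDGFRA to 23.1 at VEGFA.

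By position, 25 of the 155 sites lay at a start of their gene, 76 elsewhere in the gene body, 19 upstream and 35 downstream. The summit was in an intron of the member at 83 sites and in a coding exon at 2. Of the 37 sites in all 6 libraries, 10 were at a start of the member, 13 in the gene body, 7 upstream and 7 downstream. The consensus sets that the authors made for each group held 87 member sites in both, 5 in the DMSO set alone and 8 in the SNDX-5613 set alone.

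**Figure D2:**
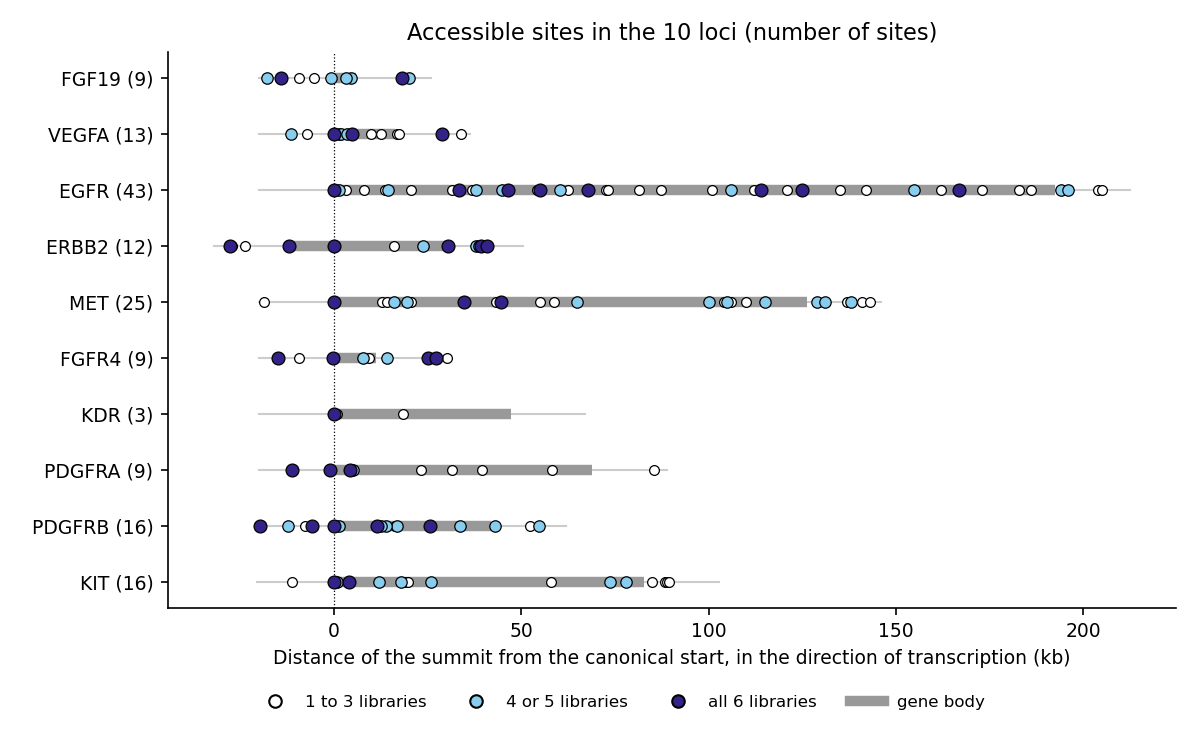
Position of each member site as the distance of its summit from the canonical start in kb (horizontal axis), 1 row per gene with its number of sites in brackets. Grey bars are gene bodies and thin lines the 20 kb flanks, white points had a peak in 1 to 3 libraries, light blue points in 4 or 5 and dark points in all 6; the 43 sites of EGFR run along the whole gene while KDR has 3.

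A promoter site in all 6 libraries was found at 8 of the 10 genes. The exceptions were FGF19 and PDGFRA. FGF19, a bile acid-induced hormone (chr11:69698238-69704022, minus strand), had a single weak promoter site 0.737 kb upstream of its start, with pileups of 14, 15 and 20 reads in the DMSO libraries and 13 and 23 in SNDX-5613 replicates 1 and 2. No peak was called there in SNDX-5613 replicate 3, and among the 59986 sites shared by the 5 deeper libraries its percentile was 2.76 to 19.4. PDGFRA, the receptor of mesenchymal progenitors (chr4:54229280-54298245, plus strand), had no site within 1 kb of any start, and its nearest one lay 1.06 kb upstream of the canonical start, with a mean percentile of 35.6 ± 5.01 under DMSO and 41.0 ± 10.6 under SNDX-5613 (SD, n = 3 each), and a difference between 0.965 and 11.2 points when 1 library was left out.

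The promoter sequences of 4 receptor genes are shown because they hold the sites at which the genes were compared. Each is the stretch without annotated exons within 100 bp of the summit in hg38, read on the strand of the gene, with capitals for letters of the motifs described further on. In these 4 windows the capitals are GGGCGG or its reverse complement, the core letters of SP factor sites, except for GGAATG, the core of TEAD sites, in ERBB2 and an 11-letter CTCF-like match in EGFR.
EGFR promoter (chr7:55018860-55019016, plus strand): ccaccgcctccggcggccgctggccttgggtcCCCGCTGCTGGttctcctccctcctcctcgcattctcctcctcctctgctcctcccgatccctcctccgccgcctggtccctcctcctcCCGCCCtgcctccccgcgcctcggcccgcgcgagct
ERBB2 canonical promoter (chr17:39699865-39699975, plus strand): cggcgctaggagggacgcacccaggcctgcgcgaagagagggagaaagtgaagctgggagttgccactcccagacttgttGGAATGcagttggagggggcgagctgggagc
MET promoter (chr7:116672072-116672195, plus strand): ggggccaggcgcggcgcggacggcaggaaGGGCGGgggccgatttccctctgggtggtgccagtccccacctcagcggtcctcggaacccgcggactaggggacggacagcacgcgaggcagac
KDR promoter (chr4:55125596-55125730, minus strand): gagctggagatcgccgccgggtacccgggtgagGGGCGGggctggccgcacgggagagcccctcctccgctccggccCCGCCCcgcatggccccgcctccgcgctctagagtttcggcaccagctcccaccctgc

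In the DMSO libraries the strongest promoter sites fell into 3 levels. The ERBB2 site at an alternative start (83.5 ± 3.39), the PDGFRB promoter (79.0 ± 3.84) and the EGFR promoter (77.3 ± 4.74) ranked highest, and these neighbours overlapped in their per-library percentiles (SD, n = 3). The ERBB2 site is shared with the promoter of the neighbour PGAP3, whereas the canonical ERBB2 promoter, at 62.8 ± 2.81, lay in the middle level. FGFR4 (65.5 ± 1.56), MET (64.8 ± 5.15), VEGFA (61.7 ± 2.31) and KIT, the receptor of stem cell factor (54.3 ± 1.05), came next. Of these, KIT lay below the lowest VEGFA library, while FGFR4 and MET overlapped. KDR was far below, at 15.5 ± 5.87. The receptor of endothelial cells thus had a promoter that was open in every library but weak among the sites in all 6 libraries. Among all regions called in each library, its percentiles were 58.3, 56.2 and 62.1 in DMSO and 64.9, 70.0 and 63.4 in SNDX-5613 libraries.

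The EGFR promoter (summit 57 bp upstream of the canonical start, site chr7:55018689-55019599) had percentiles of 82.6, 73.4 and 76.0 in DMSO and 72.5, 74.9 and 68.5 in SNDX-5613 libraries. DMSO replicate 1 was the highest and SNDX-5613 replicate 3 the lowest, and the groups overlapped. The SNDX-5613 mean differed from the DMSO mean by -5.37 points, with a standard error of 3.83 and a limma adjusted p of 0.654. The difference was -2.74 points without DMSO replicate 1, and 1.47 points when sites were ranked by fold enrichment, so its direction depended on the measure ranked. Of the EGFR sites in all 6 libraries, 1 of 8 had a higher mean in SNDX-5613, against 49.3% of all sites.

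ERBB2 had a promoter site at each of 2 starts. At the canonical start (chr17:39699738-39700626, within an intron of longer transcripts) the percentiles were 64.3, 59.5 and 64.5 in DMSO and 49.1, 54.8 and 47.7 in SNDX-5613 libraries. All 3 SNDX-5613 libraries were below all 3 DMSO libraries, with a difference of -12.2 points, a standard error of 5.51 and a limma adjusted p of 0.503. Leaving out 1 library at a time, the difference stayed between -14.4 and -10.8 points.
The other ERBB2 promoter site (chr17:39687722-39688371), 12.1 kb further upstream, covers the promoter and a coding exon of the neighbour PGAP3, a GPI anchor remodelling gene read from the opposite strand, so its signal cannot be assigned to either gene. Its percentiles were 83.7, 80.0 and 86.7 in DMSO and 87.1, 87.8 and 95.4 in SNDX-5613 libraries. Here all 3 SNDX-5613 libraries were above all 3 DMSO libraries, by 6.68 points with a standard error of 2.89 and a limma adjusted p of 0.490, the lowest among the member sites. SNDX-5613 replicate 3 gave the highest value, and without it the difference was 4.03 points.

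The MET promoter (chr7:116671778-116672567) had percentiles of 70.5, 60.4 and 63.5 in DMSO and 62.2, 57.1 and 72.5 in SNDX-5613 libraries. The groups overlapped and their means differed by -0.865 points (standard error 5.54), with -5.16 to 2.57 points when 1 library was left out and 7.45 points with ranking by fold enrichment. The FGFR4 promoter (chr5:177086484-177087447) was as even, at 64.2, 65.2 and 67.2 in DMSO and 71.3, 63.1 and 67.5 in SNDX-5613 libraries, a difference of 1.79 points (standard error 4.48) that was -0.224 points without SNDX-5613 replicate 1 and 3.88 points without SNDX-5613 replicate 2.
At the KIT promoter (chr4:54657642-54658215) the percentiles were 55.3, 54.5 and 53.2 in DMSO and 53.1, 46.9 and 54.4 in SNDX-5613 libraries, a difference of -2.88 points (standard error 5.77). It was -0.594 points without SNDX-5613 replicate 2 and, with ranking by fold enrichment, 6.23 points. The limma adjusted p was 0.969 for MET, 0.914 for FGFR4 and 0.887 for KIT.

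The PDGFRB promoter (chr5:150155464-150156206) had percentiles of 77.9, 75.9 and 83.3 in DMSO and 67.7, 67.3 and 84.9 in SNDX-5613 libraries. SNDX-5613 replicates 1 and 2 were below all DMSO libraries, whereas SNDX-5613 replicate 3 was the highest of all. The difference was -5.73 points (standard error 4.89, limma adjusted p = 0.709) and ran from -11.5 points without SNDX-5613 replicate 3 to -2.75 points without SNDX-5613 replicate 2.

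At VEGFA, the vascular growth factor gene, SNDX-5613 replicate 3 was instead the lowest library. The promoter site (chr6:43769423-43770301), which also covers the start of a long noncoding RNA gene, had percentiles of 62.8, 59.0 and 63.2 in DMSO and 67.0, 56.2 and 33.4 in SNDX-5613 libraries. The difference of -9.49 points (standard error 8.04, limma adjusted p = 0.707) rested on SNDX-5613 replicate 3, and it was -0.10 points without that library, -16.9 points without SNDX-5613 replicate 1 and 0.795 points with ranking by fold enrichment. At a second VEGFA promoter site, 4.72 kb into the gene (chr6:43774830-43775181), the percentiles were 41.7, 21.1 and 30.2 in DMSO and 14.2, 13.1 and 28.9 in SNDX-5613 libraries, and the groups overlapped only through SNDX-5613 replicate 3. This site was picked after its values were seen.

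The KDR promoter (chr4:55125225-55126114) had the highest difference of means of the 37 sites and also the widest spread within SNDX-5613. Its percentiles were 19.5, 8.76 and 18.3 in DMSO and 16.7, 26.6 and 56.3 in SNDX-5613 libraries. SNDX-5613 replicate 1 lay within the DMSO range, and SNDX-5613 replicate 3, where the summit held 11 reads, was more than any other library. The difference was 17.7 points (standard error 9.08, limma adjusted p = 0.544) and 6.14 points without SNDX-5613 replicate 3.

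**Figure D3:**
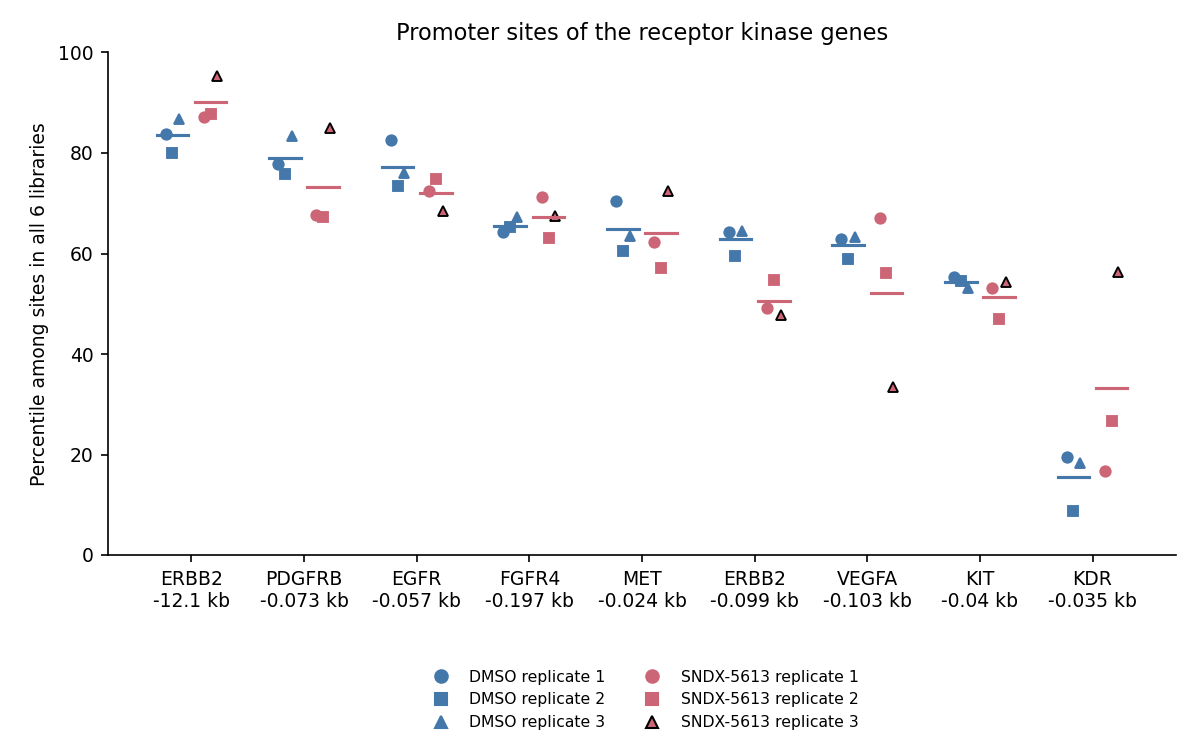
Percentile (vertical axis, 0 to 100, among the 33405 sites in all 6 libraries) of the strongest promoter site of 8 genes and of the ERBB2 canonical promoter, with the distance of the summit from the canonical start under each name. Points are libraries, lines are group means (n = 3) and the black outline marks SNDX-5613 replicate 3; the groups do not overlap at both ERBB2 sites and overlap at the other 7.

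Over all 37 member sites in all 6 libraries, limma on the percentiles called 0 at an adjusted p under 0.05 in either direction. Of all 33405 sites, 0.0898% were called higher and 0.0120% lower in SNDX-5613 libraries. With the shared dish as a block, limma called 0 member sites as well, and 0.00898% of all sites higher and 0 lower. An unadjusted p under 0.05 was reached by 3 member sites, 8.11% of them against 9.90% of all sites. These were both ERBB2 promoter sites and an intronic MET site. The median difference of the member sites was -0.479 points against -0.0933 over all sites, 18 of 37 were above 0 against 49.3% of all sites, and the median standard error was 6.09 points.

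**Figure D4:**
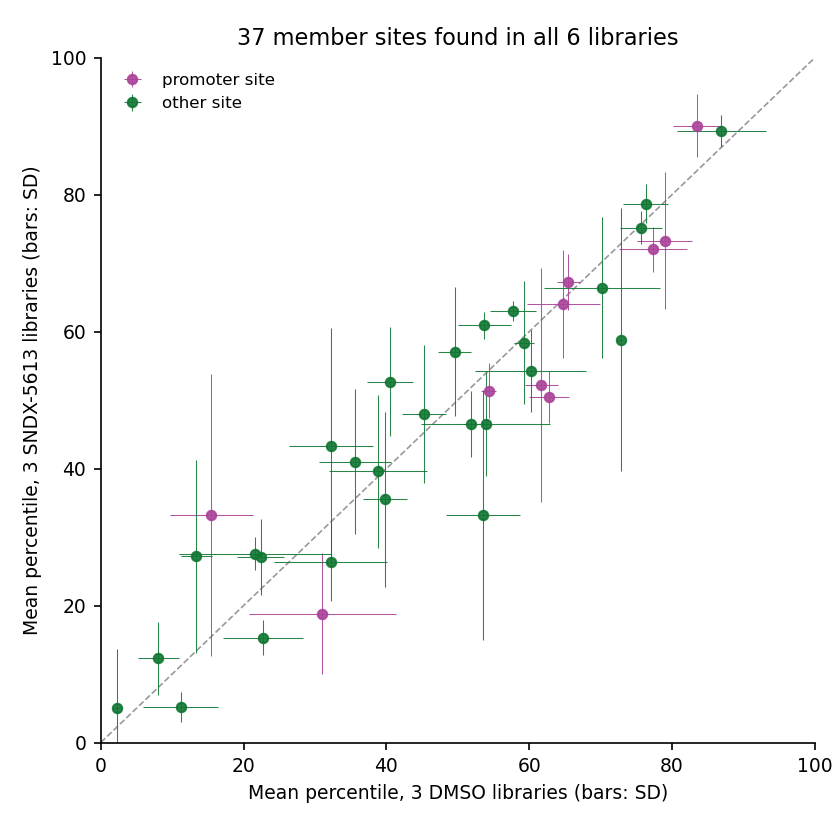
Mean percentile of the 37 member sites in the 3 DMSO libraries (horizontal axis) and the 3 SNDX-5613 libraries (vertical axis), with bars for 1 SD in each direction and a dashed line of equality. At the majority of sites a bar crosses the line. The KDR promoter, at 15.5 and 33.2, and the intronic MET site, at 53.5 and 33.2, lie farthest from it.

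The groups did not overlap at 7 member sites. The SNDX-5613 libraries were all higher at 5, which is 13.5% of the 37 member sites where 8.54% of all sites did so, and all lower at 2, which is 5.41% against 8.08%. Either way the share was 18.9% against 16.6% of all sites, so the members were near the background. With 3 against 3 libraries an exact two-sided permutation test cannot go below p = 0.1, and no site was tested in that way. ERBB2 held 3 of the 7, and the other 4 lay at FGFR4, FGF19, PDGFRA and PDGFRB, all more than 1 kb from any start of a protein-coding gene or long noncoding RNA.

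The windows around the summits of 5 of these sites are shown, read on the strand of the member gene, so that their letters can be read beside their values. Capitals in FGFR4, PDGFRA and PDGFRB mark a loose core of the CTCF site on either strand, which is CCA, any 2 letters, AG, any 2 letters and GG. In FGF19 they mark GGAATG, and in the ERBB2 neighbour GRB7 they mark matches to TGANTCA, the AP-1 site, GGAATG and GGGCGG.
FGFR4 downstream site (chr5:177111957-177112157, plus strand): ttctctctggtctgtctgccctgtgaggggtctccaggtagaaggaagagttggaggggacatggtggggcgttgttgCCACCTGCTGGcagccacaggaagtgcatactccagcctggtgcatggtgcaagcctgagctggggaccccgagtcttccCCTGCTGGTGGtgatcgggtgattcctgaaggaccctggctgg
FGF19 downstream site (chr11:69685945-69686145, minus strand): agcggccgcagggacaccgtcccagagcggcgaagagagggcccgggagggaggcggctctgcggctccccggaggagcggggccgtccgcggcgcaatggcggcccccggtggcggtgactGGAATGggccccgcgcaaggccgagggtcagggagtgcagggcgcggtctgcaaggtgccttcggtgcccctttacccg
PDGFRA upstream site (chr4:54217872-54218072, plus strand): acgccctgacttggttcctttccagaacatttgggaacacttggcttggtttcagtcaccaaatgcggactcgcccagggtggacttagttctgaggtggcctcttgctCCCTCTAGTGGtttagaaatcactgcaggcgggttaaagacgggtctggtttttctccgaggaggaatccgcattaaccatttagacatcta
PDGFRB upstream site (chr5:150161686-150161886, minus strand): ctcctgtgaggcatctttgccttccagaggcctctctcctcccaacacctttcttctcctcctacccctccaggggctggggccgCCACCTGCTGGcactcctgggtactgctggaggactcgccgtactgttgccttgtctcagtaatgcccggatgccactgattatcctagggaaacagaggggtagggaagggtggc
GRB7 intron site (chr17:39740632-39740832, plus strand): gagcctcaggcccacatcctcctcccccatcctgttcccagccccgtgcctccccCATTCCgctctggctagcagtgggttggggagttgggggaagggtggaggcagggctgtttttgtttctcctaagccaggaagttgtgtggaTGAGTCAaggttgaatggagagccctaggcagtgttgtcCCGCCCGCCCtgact

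The FGFR4 site lay 25.1 kb downstream of the canonical start, between genes (chr5:177111767-177112325). Its percentiles were 41.9, 42.8 and 36.8 in DMSO and 52.2, 45.1 and 60.9 in SNDX-5613 libraries. SNDX-5613 replicate 2 was only just above DMSO replicate 2. The difference was 12.3 points (standard error 6.67, limma adjusted p = 0.565), and 8.17 points without SNDX-5613 replicate 3.

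The FGF19 site, 18.0 kb downstream of that gene's start (chr11:69685825-69686294), was the strongest one of the locus. Its percentiles were 57.9, 54.3 and 60.8 in DMSO and 63.6, 64.1 and 61.3 in SNDX-5613 libraries. The lowest SNDX-5613 library was 61.3 and the highest DMSO library 60.8, so the gap between the groups was small. The difference was 5.33 points (standard error 5.04, limma adjusted p = 0.741).

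All 3 PDGFRA sites in all 6 libraries had a higher mean in SNDX-5613, where 49.3% of all sites did. The site 11.3 kb upstream (chr4:54217553-54218107) had percentiles of 54.6, 49.6 and 56.8 in DMSO and 61.6, 62.6 and 58.7 in SNDX-5613 libraries. The groups did not overlap, and the difference was 7.29 points (standard error 5.40, limma adjusted p = 0.666). The strongest PDGFRA site, in an intron 4.13 kb into the gene (chr4:54232893-54234030), was nearly level, at 76.3 ± 3.10 under DMSO and 78.7 ± 2.80 under SNDX-5613 (SD, n = 3 each), with a difference of 0.988 to 4.06 points when 1 library was left out.

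PDGFRB had a lower mean in SNDX-5613 at 4 of its 5 sites in all 6 libraries, where 49.3% of all sites had a higher one. Such counts by locus come from the same 6 libraries and were not tested. The upstream site at 5.94 kb (chr5:150161249-150162035) had percentiles of 72.9, 73.0 and 72.4 in DMSO and 67.8, 71.8 and 36.7 in SNDX-5613 libraries. The DMSO libraries were almost equal and SNDX-5613 replicate 3, with a pileup of 11 reads, was far below the rest. The difference was -14.0 points (standard error 8.02, limma adjusted p = 0.580), but -2.98 points without SNDX-5613 replicate 3.

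In the ERBB2 window, the site 40.7 kb downstream of the canonical start (chr17:39740376-39740857) lay in an intron of GRB7, an adaptor that binds ERBB2 and is often amplified with it, and within 1 kb of a GRB7 start. Its percentiles were 14.0, 11.0 and 15.2 in DMSO and 15.5, 23.3 and 42.9 in SNDX-5613 libraries. SNDX-5613 replicate 1 was only just above the highest DMSO library. The difference was 13.9 points (standard error 6.79, limma adjusted p = 0.525) and 6.03 points without SNDX-5613 replicate 3.
The strongest site of the window away from the ERBB2 starts, at the start of MIEN1 30.5 kb downstream (chr17:39730093-39730894), differed by 2.34 points (standard error 3.05), from 86.9 ± 6.21 under DMSO to 89.3 ± 2.29 under SNDX-5613 (SD, n = 3 each). Leaving out 1 library gave -1.02 points without DMSO replicate 1 and up to 5.11 points without DMSO replicate 3.

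**Figure D5:**
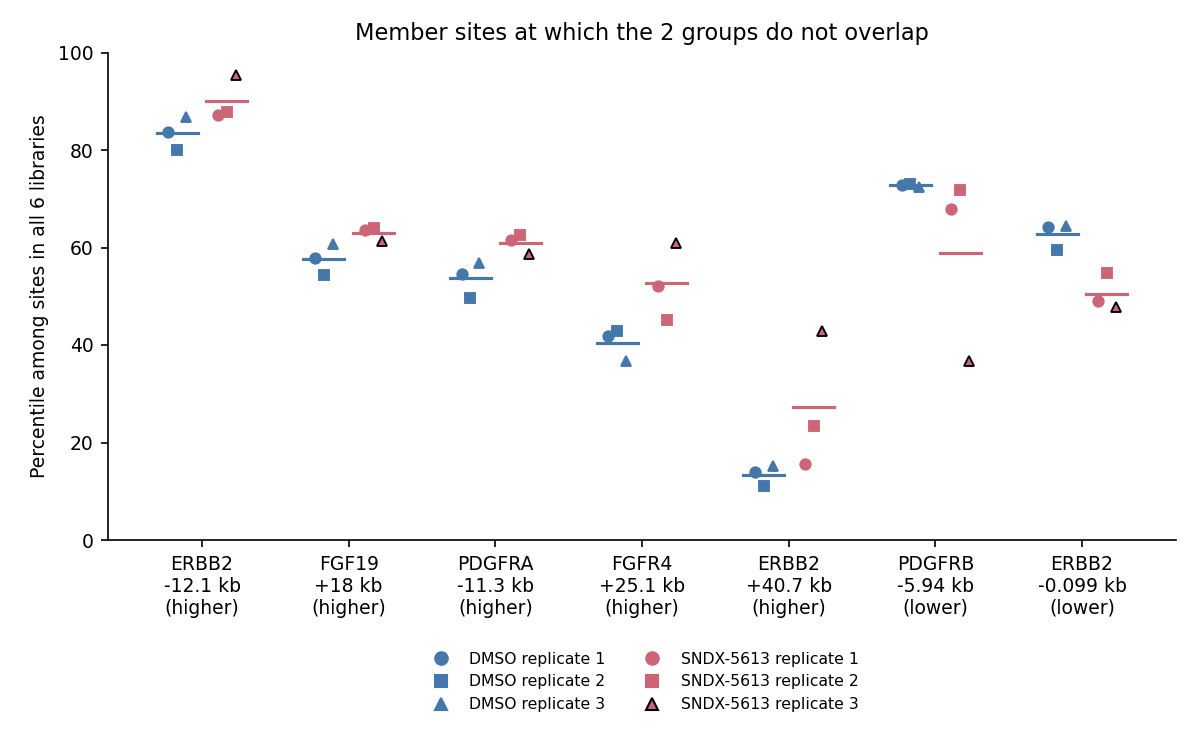
Percentile (vertical axis, among the 33405 sites in all 6 libraries) of the 7 member sites at which the groups did not overlap, 5 higher and 2 lower in SNDX-5613, with the distance from the canonical start of the member. Points are libraries, lines are group means (n = 3), and the black outline marks SNDX-5613 replicate 3, which lies farthest from the DMSO libraries at 5 of the 7 sites.

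The lowest difference of all members was at an intronic MET site 34.6 kb into the gene (chr7:116706549-116707097), which was picked after its values were seen. Its percentiles were 49.7, 59.3 and 51.4 in DMSO and 50.4, 35.3 and 13.9 in SNDX-5613 libraries. SNDX-5613 replicate 1 lay within the DMSO range, so the groups overlapped. The difference was -20.2 points (standard error 9.04, limma adjusted p = 0.501) and -10.6 points without SNDX-5613 replicate 3, where the summit held 5 reads. Another intronic MET site, 44.6 kb into the gene (chr7:116716594-116717275), was the strongest one outside the promoter and had a mean that was 7.48 points higher (standard error 6.53). This difference was 3.11 points without SNDX-5613 replicate 3 and 12.5 points without SNDX-5613 replicate 2.

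The strongest sites of EGFR, VEGFA, KIT and KDR away from their promoters were also compared. In EGFR this was an intronic site 114 kb into the gene (chr7:55132695-55134286), at 75.6 ± 2.95 under DMSO and 75.2 ± 2.46 under SNDX-5613 (SD, n = 3 each), close to the level of the EGFR promoter; leaving out 1 library gave differences of -1.91 to 1.04 points. The VEGFA site 28.8 kb downstream (chr6:43798725-43799277) was at 32.2 ± 5.86 and 43.3 ± 17.3, a difference of 11.1 points that became 1.91 without SNDX-5613 replicate 3 and 19.0 without SNDX-5613 replicate 2. The intronic KIT site 3.92 kb into the gene (chr4:54661343-54662273) was at 45.3 ± 3.11 and 48.0 ± 10.1, and its difference was -1.38 points without SNDX-5613 replicate 1 and 8.32 points without SNDX-5613 replicate 3. In each of these 3 the difference was smaller than the spread of at least 1 group. The KDR site, in an intron 18.4 kb into the gene (chr4:55107133-55107323), had a peak in SNDX-5613 replicate 1 alone, with a pileup of 7 reads.

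As to presence, 0 member sites were gained, that is, called in every SNDX-5613 library and in no DMSO library, where 0.147% of all sites were. The opposite pattern, a lost site, was seen at 1 member site, 0.645% against 1.18% of all sites. It lay in an EGFR intron 183 kb into the gene (chr7:55202279-55202828), with pileups of 7, 11 and 8 reads in the DMSO libraries, where the lowest called pileup was 6 or 7. The number of lost member sites rested on single libraries: there were 6 without DMSO replicate 1 (2.99% of all sites) or without SNDX-5613 replicate 1 (3.30%), and 3 without DMSO replicate 3 (2.43%) or without SNDX-5613 replicate 2 (2.10%).

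Since SNDX-5613 replicate 3 set the size of several differences, the 5 deeper libraries were also compared among themselves. They shared 70 member sites, ranked among 59986. Both SNDX-5613 libraries were above all 3 DMSO libraries at 11 of these, 15.7% against 14.3% of all sites. They were below at 14 of the 70, a larger share than the 14.4% of all sites. With all 6 libraries the share of lower member sites was instead smaller than that of all sites, 5.41% against 8.08%. This change of balance was not tested. Limma called 0 of the 70 at an adjusted p under 0.05, where 0.210% of all sites were called higher and 0.0517% lower. An unadjusted p under 0.05 was reached by 5 of the 70, 7.14% against 12.0% of all sites.

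PDGFRB held 5 of those 14 lower sites out of 11 shared and none of the higher ones, where 14.4% of all sites were lower and 14.3% higher. This locus was picked after its values were seen, and the count was not tested. The 5 were the promoter (-6.49 points), the upstream site (-1.67 points) and 3 sites inside the gene. The largest difference of the 5 was at a site 33.5 kb into the gene, at an internal start (chr5:150122197-150122443), with pileups of 28, 35 and 27 reads in DMSO and 24 and 22 in SNDX-5613 replicates 1 and 2 and a difference of -14.9 points.
Among the MET sites, also picked afterwards, an intronic one 15.9 kb into the gene (chr7:116687826-116688184) had percentiles of 41.7, 50.6 and 41.4 in DMSO and 15.3 and 27.5 in SNDX-5613 replicates 1 and 2. It had the largest difference of the 25 sites, -23.2 points. Among the ERBB2 sites, the canonical promoter differed by -6.64 points, with both SNDX-5613 libraries below all DMSO libraries.

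Motif letters were searched on both strands within 100 bp of the summits of the 37 sites. GGGCGG was found at 11 of the 13 sites near any annotated start, against 61.8% of all such sites, and 4 of the 24 other sites, against 14.0%. TGANTCA was found at 7 of the 24 sites away from starts, 3 of them in EGFR introns, 2 in MET introns and 1 in a KIT intron, against 26.8% of all such sites. CCAAT, the NF-Y box that the study was concerned with, occurred at 5 of 37 member sites, against 26.6% of all sites. These included the ERBB2 canonical promoter and the PDGFRB promoter. The search covered whole windows with their exons, which the printed promoter stretches leave out. The CCAAT of the ERBB2 canonical promoter is not within its printed stretch. GGAATG was found at 6 sites, AGATAA, the GATA site, at 1, and ACGTG, the site of hypoxia-inducible factors, at 6, against 15.2%, 4.75% and 15.6% of all sites.

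The loose CTCF core was searched only after the sequences had been read. It was found at 12 of 37 member sites against 18.4% of all sites, and away from starts at 10 of 24 against 24.5%. It was in the windows of 3 of the 4 sites at FGFR4, FGF19, PDGFRA and PDGFRB where the groups did not overlap. Of these, FGFR4 and PDGFRA were higher in SNDX-5613 and PDGFRB lower. The ERBB2 sites where the groups did not overlap did not hold it. A link between this core and the differences was not tested. These are letter matches in these windows, and binding of the factors was not measured here.

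The rest of the pathway was read from the strongest promoter site of each gene. Of 64 other genes, 52 had a promoter site in all 6 libraries, 81.2% against 63.4% of all protein-coding genes. By role these were 12 of 17 ligand genes, 12 of 18 receptor and coreceptor genes, 19 of 20 genes of the effectors between receptor and MAP kinase, PI3 kinase or STAT3, and 9 of 9 feedback inhibitor genes. The groups did not overlap at 6 higher and 4 lower of the 52, 19.2% against 14.7% of the promoters of all protein-coding genes, and limma called 0, with a lowest adjusted p of 0.0598, where 0.0709% of those promoters were called. An unadjusted p under 0.05 was reached by 8 of the 52, 15.4% against 8.86% of the promoters of all protein-coding genes. Their median difference was 0.0427 points against -0.381 over all protein-coding genes.

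Marker promoters were checked against the label of a liver tumour line. None of 9 hepatocyte marker genes had a promoter site in all 6 libraries, and 4 of them had none in any library. All 6 mesenchymal and 4 of 5 epithelial markers had one. Of the endothelial markers 0 of 6 had one. The part of cell identity in the levels of PDGFRB, KIT and KDR was not tested.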

How the data were processed

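ATAC-seq peak lists of 3 DMSO and 3 SNDX-5613 libraries were used, with groups and replicate numbers from the labels. Per the labels and the study's methods, the authors trimmed reads with Trim Galore 0.6.7, aligned them to hg38 with Bowtie2 2.3.4.1, marked duplicates with Picard 2.20.0, called peaks in each library and built a consensus set for each group. A Tn5 shift, a duplicate filter and a blacklist are not given in the sources used here, and unfiltered repeats could add peaks. For every summit the deposited lists hold a ratio of its pileup to the local background (fold enrichment), a -log10 p with a -log10 q, and a score that was not used. Of the deposited consensus sets only the regions (unit other) were used. The authors' count model could not be fitted, since read counts were not analysed here.

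Summits sharing a region were merged, regions of the 6 libraries overlapping by 1 bp were joined into sites, and sites were placed by GENCODE release 44. In this check 0 summits lay past a chromosome end. Percentiles were ranks of -log10 p within a library among sites in all 6 libraries. A percentile removes any change that all sites share. Whole-number pileups were solved from fold and -log10 p, which gave 98.9% to 100% of summits a value. Percentiles were compared with limma 3.58.1 (R 4.3.3) with a mean trend over all 33405 sites and Benjamini-Hochberg adjustment, tested on simulated data. Other steps used Python 3.11.15 and pandas 2.3.3. A site was called separated where the 3 values of 1 group lay beyond all 3 of the other. Named sites were each gene's strongest promoter and other site, and every gained, lost, called or separated site (at most 3 separated sites per gene). Other sites were picked after their values were seen: the one nearest the PDGFRA start, the VEGFA site 4.72 kb, the MET sites 34.6 and 15.9 kb and the PDGFRB site 33.5 kb into the gene. The pairing of same-numbered libraries comes from the study's methods (1 dish divided between the arms); in a check, their deviations from the group means correlated at 0.0313, 5.90e-05 and 0.0184. The members and lists were chosen with earlier results of these data known. Alternatives were a threshold of 3 on -log10 q, equal numbers of regions, 50% cover of a site, ranking by fold, normal scores, a replicate block, overlap with the locus, flanks of 5 kb, each library left out and the 5 deeper libraries alone. A blood marker list and a promoter sequence are not reported here.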

Additional observations from a re-analysis of the deposited data

How the results depend on the processing

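Limma called 0 member sites and 0 were gained under every alternative run. Of all 166021 sites, 244 were gained with the 6 libraries and 3965 without SNDX-5613 replicate 3, against 0 of 155 member sites in both. The number of separated sites depended on the settings. Of sites higher in SNDX-5613 there were 5, and 3 with 50% cover, 3 with ranking by fold and 1 with flanks of 5 kb. Under these settings 7.92% to 8.54% of all sites were separated in that direction. The 5 deeper libraries gave 11 (14.3% of all sites). Leaving out 1 library gave 5 to 9 (12.3% to 14.5%), the highest without SNDX-5613 replicate 3 (14.2%). Of sites lower there were 2 (8.08%). There were 0 with 50% cover (7.39%), 3 with ranking by fold (6.83%) and 1 with flanks of 5 kb (8.08%). The 5 deeper libraries gave 14 (14.4%). Leaving out 1 library gave 4 to 7 (12.2% to 14.4%), the highest again without SNDX-5613 replicate 3 (14.4%). Fewer libraries separate more easily, and fewer sites were in play with 50% cover (16) and 5 kb flanks (25). Lost sites numbered 1, 2 at equal numbers of regions (0.973% of all sites) and 1 to 6 when 1 library was left out, with 6 without DMSO replicate 1 (2.99%) and without SNDX-5613 replicate 1 (3.30%).

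Of 72 alternative values for promoter differences, 64 kept their direction; the block, which leaves a difference as it is, was not counted. With ranking by fold the difference became 1.47 at EGFR, 7.45 at MET, 0.795 at VEGFA and 6.23 at KIT, and VEGFA was 0.0436 in the 5 deeper libraries; the cause was not tested. Leaving out 1 library gave -5.16 to 2.57 at MET (above 0 without DMSO replicate 1 or SNDX-5613 replicate 2) and -0.224 to 3.88 at FGFR4 (below 0 without SNDX-5613 replicate 1).

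With the replicate block for the shared dish, 0 member sites were called higher and 0 lower, so it changed no call of a member, and 3 and 0 of all sites were called instead of 30 and 4. Over all sites, limma called 0 with ranking by fold and 101 higher and 8 lower without SNDX-5613 replicate 3. The depth of that library limits what its ranks can resolve.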
